A study of Homo sapiens with 24 samples.

Results

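A set of 40 genes of the G2 phase and of the mitotic spindle was followed across 24 expression arrays of the human bladder cancer cell line RT112. The members were listed by name, TACC3 was kept out of the list, and each gene was read from its probe set with the highest mean over the 24 arrays. All 40 members were measured, out of 19775 genes in all. Levels were compared by sample label and, as a description, by whether an array's level of TACC3 was low, at 11.43 or less on the log2 scale, or high, at 11.82 or more.

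The arrays hold 4 hairpin lines. The lines 2-4, 4-1 and 6-16 each carried a different hairpin RNA against FGFR3, a receptor tyrosine kinase, and the EGFP line carried a hairpin against EGFP, a jellyfish gene that human cells lack. Each line was profiled with doxycycline, which switches the hairpin on, and without it, giving 8 groups of 3 arrays. All cells were RT112 cells carrying an inducible hairpin, all were kept in medium with 1% serum, and RNA was taken after 48 h with doxycycline at 1 µg/ml or with none. The labels do not say whether a line was a clone or a pool, or whether the 3 arrays of a group came from separate cultures, so p-values measure the spread between these arrays, which may be technical.

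Cells enter mitosis when cyclin B bound to CDK1 becomes active, after which Polo and Aurora kinases build the spindle. The spindle checkpoint then holds back the anaphase-promoting complex until every kinetochore is attached. Most of these genes are transcribed late in the cell cycle and are silent in resting cells, so in bulk RNA their level follows how many cells are in G2 or mitosis. Fewer such cells and less of these RNAs per cell cannot be told apart on these arrays. TACC3 is itself a spindle protein, and in RT112 its gene is joined to FGFR3 in a fusion gene. A split of arrays on TACC3 thus uses a gene of the members' own class, and their levels may not be independent of it.

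On the probe sets used, all members but BUB3 varied more between arrays than the median gene did. The range of a member over the 24 arrays had a median of 1.25 on the log2 scale, against 0.49 over all genes. It was widest for SPC25, a subunit of the Ndc80 complex that binds microtubules, at 1.81, and narrowest for BUB3, a checkpoint adaptor, at 0.38. Another of the 6 probe sets of BUB3 had a higher variance.

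The arrays did not group by label. The nearest array, by correlation over all genes, carried the same label for 0 of the 24 arrays. In the 3 FGFR3 lines the brighter FGFR3 probe set spanned 11.28 to 12.34 with doxycycline and 11.36 to 12.27 without, and the dimmer one 8.91 to 10.95 with doxycycline and 8.71 to 11.20 without, so the targeted gene did not separate the labels. The labels may thus not match the arrays they are attached to, and every value given by label below, tests included, rests on them. Sets of arrays were therefore also described by marker genes, chosen with earlier results of these arrays known: 6 arrays with ARMCX3 below 6 (ARMCX3-low), 6 with GAS1 above 8 (GAS1-high), 6 with the brighter FGFR3 probe set at 11.43 or less, where all others had 11.83 or more (FGFR3-low), and the 6 remaining ones (unmarked). The name FGFR3-low refers to the brighter probe set only. These sets were split on measured values and are not groups named by the labels, so they carry no test. Of the 24 arrays, 21 had both nearest arrays in their own set and on their own TACC3 side.

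RT112 comes from urothelium, whose markers were present. The 8 measured epithelial markers had mean levels of 9.05 to 13.83, and their median was above 98.5% of genes. The median of the 4 measured leukocyte markers was 5.61, above 11.5% of genes, and the 5 fibroblast markers had mean levels of 7.12 to 13.18. No marker can read 0 on this log2 scale.

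By label, doxycycline was compared with no doxycycline in each line, the question being which genes depend on FGFR3. limma's test with Benjamini-Hochberg adjustment over all genes passed 0 of the 40 members in any line, in the contrast of the FGFR3 lines with the EGFP line, and in the F-test among the FGFR3 lines. The background was the same, with 0% of the 19775 genes passing in each comparison. In the 6-16 line this depended on the fit, as 1 gene passed with the replicate number as a block and 1291 passed with array weights, of which 0 were members in either. At an unadjusted p under 0.05 there were 0 members in each, while over all genes there were 487 in the 2-4 line, 223 in the 4-1 line, 1539 in the 6-16 line, 505 in the EGFP line, 428 in the contrast and 636 in the F-test.

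Although none passed, the members' fitted changes shared a sign within a line. In the 2-4 line 39 of 40 were above 0, against 48.2% of all genes, with a median of 0.31 on the log2 scale, against -0.01 over all genes. In the 4-1 line 39 of 40 were above 0, against 46.3% of all genes, with a median of 0.26, against -0.01. In the 6-16 line 39 of 40 were below 0, against 41.0% of all genes, with a median of -0.17, against 0.03, and with array weights the members' median turned to 0.080. The EGFP line, which has no FGFR3 hairpin, had 38 of 40 above 0, against 58.4% of all genes, and a median of 0.18, against 0.02. The mean FGFR3 line change minus the EGFP line change was below 0 for 30 of 40 members, against 56.2% of all genes, with a median of -0.07, against -0.02. These comparisons share arrays with the contrast, and the members move together, so the counts are not independent.

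The intervals of the highest and lowest changes all included 0. In the 2-4 line the highest change was that of PRC1, which bundles microtubules in the central spindle, at 0.49 (SE 0.42, limma adjusted p = 0.999), and the lowest that of INCENP, the scaffold of the chromosomal passenger complex, at -0.03 (SE 0.13, limma adjusted p = 0.999). In the 4-1 line SPC25 was highest at 0.40 (SE 0.42) and INCENP lowest at -0.06 (SE 0.13), both with a limma adjusted p of 1.00. In the 6-16 line INCENP was highest at 0.10 (SE 0.13, limma adjusted p = 0.859) and SPC25 lowest at -0.38 (SE 0.42, limma adjusted p = 0.839), with a 95% interval of -1.27 to 0.50. The upper and lower ends thus fell to the same few genes in these lines. In the EGFP line MAD2L1, a checkpoint protein, was highest at 0.31 (SE 0.34, limma adjusted p = 0.975) and BIRC5, the survivin subunit of the passenger complex, lowest at -0.07 (SE 0.23, limma adjusted p = 0.982). In the contrast the ends were TOP2A, a topoisomerase that untangles chromosomes, at 0.20 (SE 0.32) and CCNB1, cyclin B1, at -0.19 (SE 0.35), both with a limma adjusted p of 1.00.

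PLK1, the Polo kinase of mitotic entry, is given array by array. In the 2-4 line its 3 arrays with doxycycline read 9.90, 9.58 and 10.02, and those without 10.04, 8.88 and 10.07. In the 4-1 line it read 9.62, 9.67 and 10.11 with doxycycline and 8.73, 9.45 and 10.09 without. In the 6-16 line it read 9.87, 8.90 and 9.99 with doxycycline and 10.05, 9.64 and 9.95 without. In each FGFR3 line 1 array stood well below the rest, without doxycycline in the 2-4 and 4-1 lines and with it in the 6-16 line. In the EGFP line the values were 9.96, 9.97 and 9.58 with doxycycline and 9.66, 9.57 and 9.46 without, with no such array.

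CCNB1, which activates CDK1, had the same 3 low arrays. It read 11.79, 11.41 and 11.95 with doxycycline in the 2-4 line and 10.75 in replicate 2 without it, where the other arrays had 11.94 and 11.74. In the 4-1 line it read 11.45, 11.66 and 11.94 with doxycycline, and 10.84, 11.41 and 12.01 without. In the 6-16 line it read 11.82, 10.87 and 11.87 with doxycycline, and 11.84, 11.72 and 11.72 without. With and without doxycycline therefore overlapped in all 3 FGFR3 lines. In the EGFP line they were 11.80, 11.94 and 11.43 with doxycycline and 11.50, 11.50 and 11.32 without, which overlapped as well.

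The medians of the 3 FGFR3 lines depended on those 3 arrays. When replicate 2 was dropped from the 2-4 group without doxycycline, 20 of 40 members were above 0, with a median of 0.00067. When replicate 1 was dropped from the 4-1 group without doxycycline, 36 of 40 were below 0, with a median of -0.081. When replicate 2 was dropped from the 6-16 group with doxycycline, 39 of 40 were above 0, with a median of 0.15. SPC25 then read -0.07 in the 4-1 line and 0.10 in the 6-16 line. The median of the contrast turned as well, to 0.050 without the last of these arrays, and to 0.011 and 0.026 without replicate 1 of the 2-4 group and replicate 3 of the 4-1 group, both labelled as having no doxycycline. The 3 low arrays were all ARMCX3-low with low TACC3, and the EGFP line holds none of them. Its labelled groups also differed in marker set. Without doxycycline replicates 1 and 3 were GAS1-high and FGFR3-low with low TACC3, and replicate 2 was ARMCX3-low with high TACC3. With it replicates 1 and 2 were unmarked, and replicate 3 was GAS1-high with low TACC3. In the 6-16 line the arrays left with doxycycline were unmarked and GAS1-high, and those without it ARMCX3-low and FGFR3-low. Doxycycline and marker set cannot be told apart in these values.

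**Figure D1:**
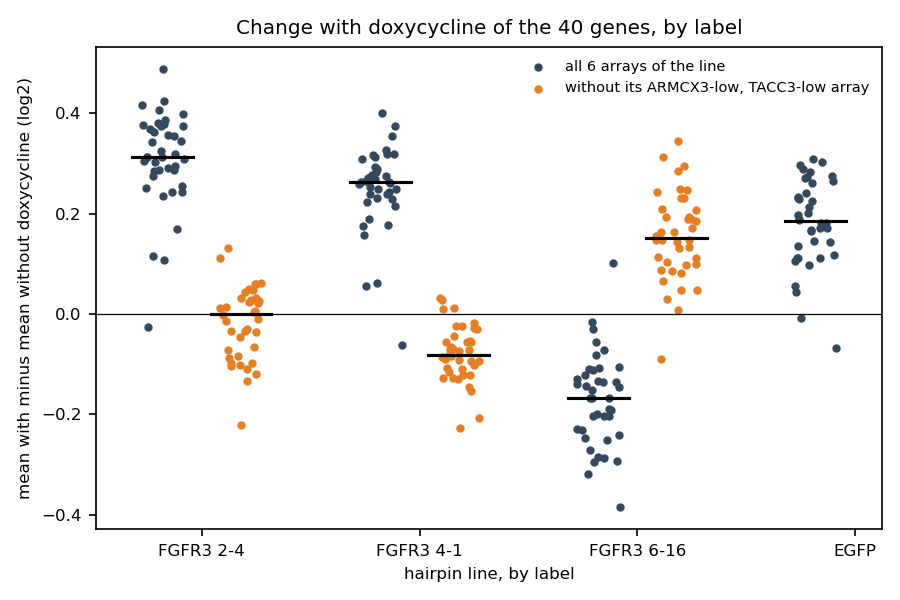
Each point is 1 of the 40 genes, and the y axis gives its mean with doxycycline minus its mean without, in log2 units, for each labelled line. Dark points use all 6 arrays of a line, orange points leave out the line's ARMCX3-low array with low TACC3, and black bars are medians. The median went with that array, at 0.31 with and 0.00067 without it in the 2-4 line, 0.26 and -0.081 in the 4-1 line, and -0.17 and 0.15 in the 6-16 line.

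Across all arrays, the median over the members of the deviation from each member's own median was used as an array's level of the gene set. Its SD within the labelled groups, pooled over the 8 groups, was 0.377, against 0.340 over all 24 arrays taken as 1 group. Within the 7 sets of arrays made by marker and TACC3 side it was 0.051, a description of sets that were chosen on measured values.

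TACC3 was low on 9 arrays, at 10.49 to 11.43, and high on 15, at 11.82 to 12.62, so the array just inside the limit read 11.43 and the array just outside it 11.82. Of the low arrays 3 were ARMCX3-low, 3 GAS1-high and 3 FGFR3-low, and each of these sets also had 3 high arrays, while the 6 unmarked arrays were all high. The dimmer FGFR3 probe set separated in the same way, at 8.71 to 9.88 on the TACC3-low arrays and 10.34 to 11.20 on the TACC3-high arrays. On the FGFR3-low arrays this dimmer probe set read 9.19 to 9.29 with low TACC3. With high TACC3 it read 11.03 to 11.20 there, above every other array, so the 2 FGFR3 probe sets differ on those arrays. In number, 3 sets of 3 low and 3 high arrays and an unmarked set of 6 high arrays match the labelled design. That design has 3 FGFR3 lines, each with 3 arrays with and 3 without doxycycline, and an EGFP line of 6 arrays. Whether the marker sets are the lines was not tested.

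**Figure D2:**
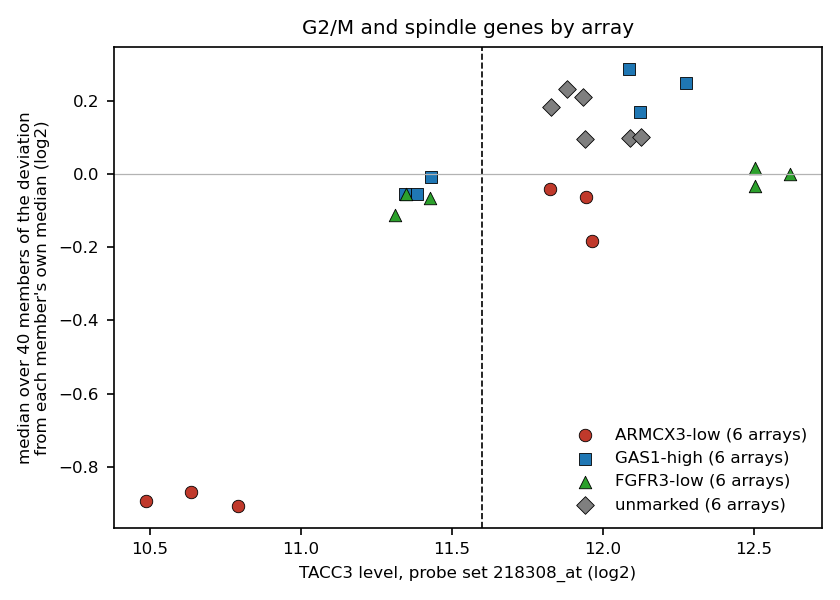
Each point is 1 of the 24 arrays, with its TACC3 level (log2) on the x axis and, on the y axis, the median over the 40 genes of the deviation from each gene's own median (log2). The dashed line parts low from high TACC3, and colours and shapes give the marker set. The 3 ARMCX3-low arrays with low TACC3 lie at -0.91 to -0.87, and the other 21 arrays lie between -0.18 and 0.29.

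Over all arrays the median was lower on the TACC3-low side for 40 of 40 members, against 53.6% of all genes. The median difference over members was -0.22 on the log2 scale, against -0.01 over all genes. Ranges overlapped for nearly all members. Only CDC20, the activator of the anaphase-promoting complex, had every TACC3-low array below every TACC3-high array, 1 of 40 members against 3.09% of all genes. Over all genes 2.9% were higher without overlap, and 0 of 40 members were. The members' share without overlap was thus near the background. Their count was 3 without replicate 1 and 6 without replicate 2 of the EGFP group that had no doxycycline. It was 3 with the probe set of highest variance and 0 with centred arrays, and among the probe sets not taken here 1 each of CCNA2, CCNB1 and BUB3 was lower without overlap.

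The difference was widest for PLK1 at -0.51, CDC20 at -0.47, CCNB1 at -0.41, MAD2L1 at -0.41, SPC25 at -0.37 and DLGAP5, a microtubule-bundling spindle protein, at -0.33. It was smallest for NUSAP1, a microtubule-binding protein of the spindle, at -0.00034, for ASPM, which organises spindle poles, at -0.015, for the cytokinesis kinesin KIF20A at -0.023, and for NDC80, the main microtubule-binding subunit of the kinetochore, at -0.028.

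A group of 3 arrays stood apart from the rest. The ARMCX3-low arrays with low TACC3 had gene set levels of -0.91, -0.89 and -0.87, while the other 21 arrays had -0.18 to 0.29. For all 40 members the lowest of the 24 arrays was 1 of these 3. The share of all genes with their lowest array among these 3 was not counted. The array at -0.91 was the lowest for 14 members, that at -0.89 for 16 and that at -0.87 for 10. They were lower without overlap than the other 21 arrays for 39 of 40 members, all but INCENP, against 4.06% of all genes lower and 6.38% higher. The median difference over members was -0.92, a ratio of 0.528, and it was widest for SPC25 at -1.38. Leaving these 3 arrays out, the TACC3-low arrays were lower without overlap for 1 of 40 members, CDC20, against 6.33% of all genes lower and 4.51% higher. The median difference was then -0.18, and 38 of 40 members were below 0, against 52.9% of all genes.

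**Figure D3:**
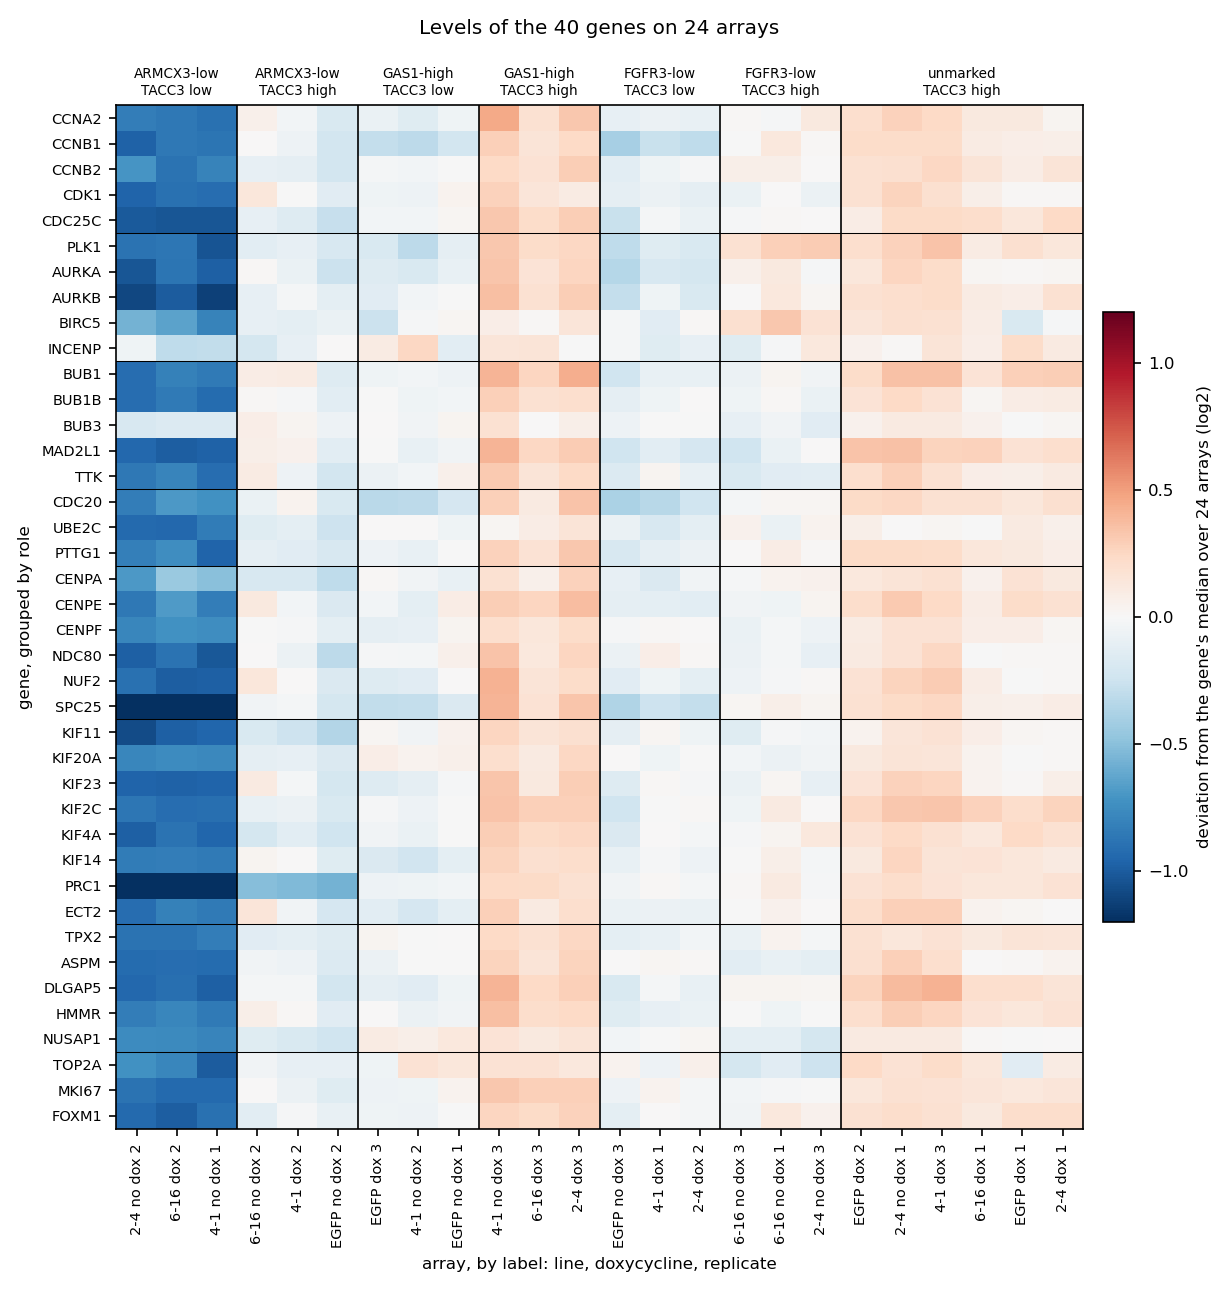
Rows are the 40 genes in order of role, columns are the 24 arrays in order of marker set and TACC3 side, and colour is the deviation from the gene's median over 24 arrays in log2 units, with the scale ending at 1.2 on either side. The first 3 columns, ARMCX3-low with low TACC3, are lower without overlap than the other 21 for 39 of the 40 genes. Of all genes 4.06% were lower and 6.38% higher without overlap there. The GAS1-high arrays with high TACC3 and the unmarked arrays are mostly above the median.

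Within each marker set TACC3-low and TACC3-high arrays were set side by side. Resemblance was seen among arrays of the same set and TACC3 side, where 21 arrays had both their nearest arrays. Whether the low and high arrays of a set are alike apart from TACC3 was not tested. In the ARMCX3-low set 39 of 40 members were lower without overlap, all but INCENP, against 14.2% of all genes lower and 21.8% higher. The median difference was -0.81, a ratio of 0.571, with gene set levels of -0.91 to -0.87 on the low arrays and -0.18 to -0.04 on the high arrays. In the GAS1-high set 35 of 40 were lower without overlap, against 19.2% of all genes lower and 14.2% higher, and the median difference was -0.30, a ratio of 0.813. The 5 that overlapped were BUB3, TOP2A, BIRC5, INCENP and NUSAP1, and the gene set levels were -0.05 to -0.01 on the low arrays and 0.17 to 0.29 on the high arrays.

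The FGFR3-low set had the narrowest difference of the 3. Of 40 members 18 were lower without overlap, against 20.9% of all genes, and 4 were higher without overlap, TOP2A, CENPF, ASPM and NUSAP1, against 24.1% of all genes. The median difference was -0.07, a ratio of 0.949, and the gene set levels were -0.11 to -0.06 on the low arrays and -0.03 to 0.02 on the high arrays. TACC3 itself spanned 11.31 to 11.43 on the low arrays and 12.50 to 12.62 on the high arrays of this set.

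In all 3 sets 17 of 40 members were lower without overlap, against 6.67% of all genes. They were CCNA2, CCNB1, CCNB2, CDC20, CDC25C, PLK1, AURKA, AURKB, BUB1, CENPA, CENPE, SPC25, ECT2, DLGAP5, HMMR, UBE2C and PTTG1. All 17 keep the same direction because the count requires it. Also lower without overlap in all 3 sets were 30 of 39 DNA replication genes (76.9%) and 21 of 59 other mitotic genes (35.6%).

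**Figure D4:**
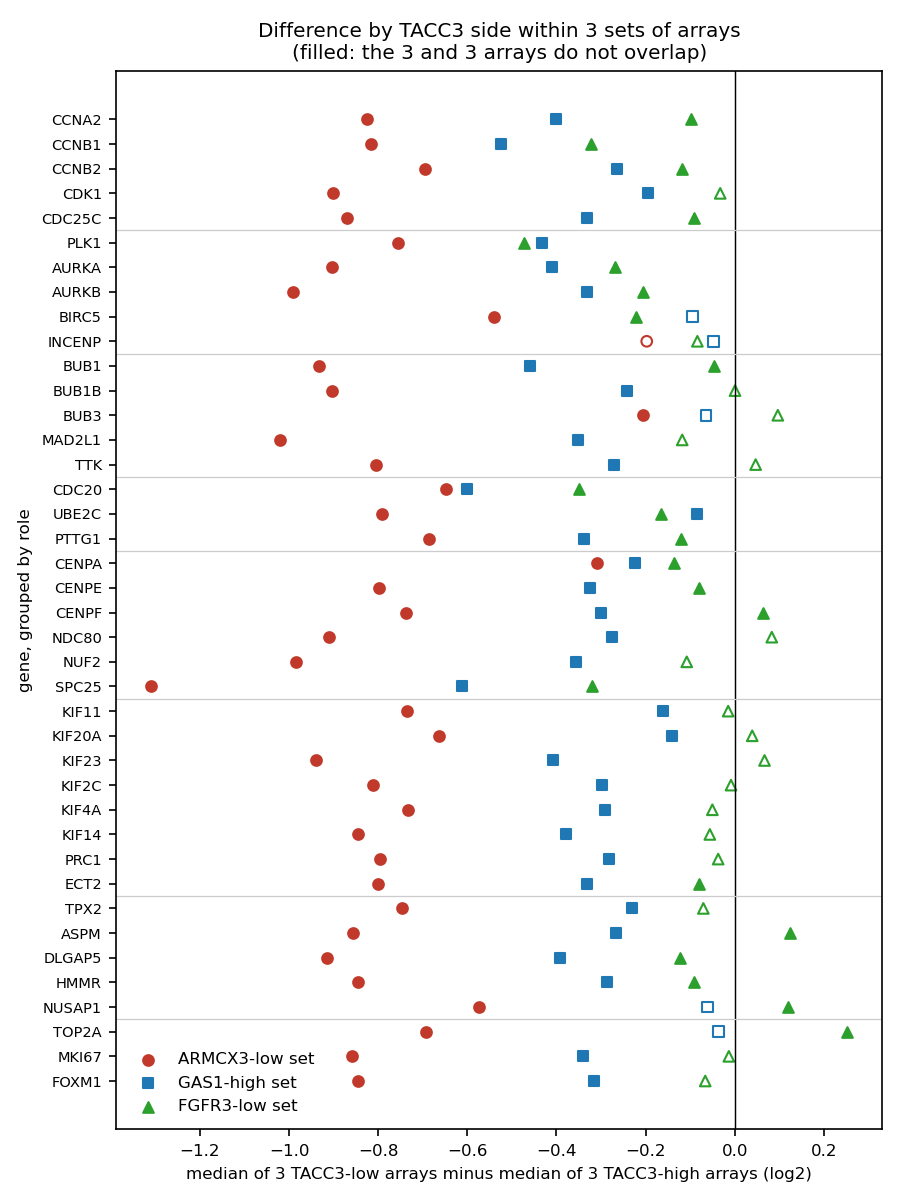
For each of the 40 genes, in order of role, the x axis gives the median of the 3 TACC3-low arrays minus the median of the 3 TACC3-high arrays (log2) within each marker set. Filled symbols mark genes whose low and high arrays do not overlap. The ARMCX3-low differences run from -1.31 for SPC25 to -0.20 for INCENP, the GAS1-high ones from -0.61 to -0.04, and the FGFR3-low ones lie on both sides of 0, from -0.47 for PLK1 to 0.25 for TOP2A.

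The cyclins and their kinase were lower in every set. CCNA2, CCNB1 and CCNB2 are cyclins, CDK1 is the kinase they activate, and CDC25C is the phosphatase that releases it from inhibition. All 5 were lower without overlap in the ARMCX3-low and GAS1-high sets, with median differences of -0.83 and -0.33, and 4 of 5 in the FGFR3-low set, with a median of -0.10 and CDK1 as the exception at -0.03. CCNB1 read 10.75, 10.84 and 10.87 on the ARMCX3-low arrays with low TACC3, and 11.50, 11.66 and 11.72 on those with high TACC3. On the GAS1-high arrays it read 11.41, 11.43 and 11.50 with low TACC3 and 11.87, 11.95 and 12.01 with high TACC3. On the FGFR3-low arrays it read 11.32, 11.41 and 11.45 with low TACC3 and 11.72, 11.74 and 11.84 with high TACC3. Its differences of -0.82, -0.52 and -0.32 made CCNB1 the widest of the cyclins in the GAS1-high and FGFR3-low sets.

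The kinases were lower in each set, while the scaffold INCENP overlapped in each. PLK1, AURKA, a kinase of the spindle poles, and AURKB, the kinase of the passenger complex, were lower without overlap in all 3 sets. PLK1 read 8.73, 8.88 and 8.90 on the ARMCX3-low arrays with low TACC3, and 9.57, 9.64 and 9.67 on those with high TACC3. In the GAS1-high set its low arrays had 9.45, 9.58 and 9.66 and its high arrays 9.99, 10.02 and 10.09. The FGFR3-low arrays had 9.46, 9.58 and 9.62 with low TACC3 and 9.95, 10.05 and 10.07 with high TACC3. PLK1 was the member with the widest difference in the FGFR3-low set, at -0.47, and it had -0.43 in the GAS1-high set and -0.76 in the ARMCX3-low set. AURKB was the widest of the kinases in the ARMCX3-low set, at -0.99. BIRC5 was lower without overlap in the ARMCX3-low and FGFR3-low sets, and INCENP had differences of -0.20, -0.05 and -0.08.

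The spindle checkpoint genes were lower in 2 sets and mixed in the third. BUB1 and TTK are checkpoint kinases, and BUB1B, BUB3 and MAD2L1 are parts of the complex that inhibits CDC20. All 5 were lower without overlap in the ARMCX3-low set, with a median of -0.90, and 4 of 5 in the GAS1-high set, with a median of -0.27. BUB1 alone was so in the FGFR3-low set, where the median was 0.00062. BUB1 read 9.22, 9.30 and 9.33 on the ARMCX3-low arrays with low TACC3 and 9.99, 10.23 and 10.24 on those with high TACC3. BUB1 read 9.90, 10.05 and 10.05 on the FGFR3-low arrays with low TACC3 and 10.07, 10.10 and 10.17 on those with high TACC3, so its values there lay close together. MAD2L1 had the widest checkpoint difference in the ARMCX3-low set, at -1.02. BUB3 varied least of all members on the probe sets used. It read 11.78, 11.80 and 11.81 on the ARMCX3-low arrays with low TACC3 and 11.91, 12.01 and 12.05 on those with high TACC3.

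The partners of the anaphase-promoting complex were lower without overlap in all 3 sets. They are CDC20, UBE2C, the ubiquitin-conjugating enzyme that works with the complex, and PTTG1, the securin that it destroys. CDC20 spanned 10.13 to 10.26 on the ARMCX3-low arrays with low TACC3 and 10.77 to 11.00 on those with high TACC3. In the GAS1-high set it spanned 10.63 to 10.75 on the low arrays and 11.07 to 11.29 on the high arrays. CDC20 in the FGFR3-low set spanned 10.58 to 10.72 on the low arrays and 10.93 to 10.98 on the high arrays. CDC20 had differences of -0.65, -0.60 and -0.35, while UBE2C had -0.79, -0.09 and -0.17.

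Of the 6 centromere and kinetochore genes all were lower without overlap in the ARMCX3-low and GAS1-high sets, with medians of -0.85 and -0.31, and 3 in the FGFR3-low set. CENPA is the histone variant that marks centromeres, CENPE a kinetochore motor and CENPF a kinetochore protein, and NDC80, NUF2 and SPC25 form part of the Ndc80 complex. SPC25 had the widest difference of all 40 members in the ARMCX3-low set, at -1.31, spanning 9.19 to 9.26 on the low arrays and 10.39 to 10.57 on the high arrays. Its differences in the GAS1-high and FGFR3-low sets were -0.61 and -0.32. CENPF moved apart from it, at 10.48, 10.52 and 10.54 on the ARMCX3-low arrays with low TACC3 and 11.15, 11.26 and 11.27 on those with high TACC3, but at 11.26, 11.27 and 11.28 on the FGFR3-low arrays with low TACC3 and 11.19, 11.21 and 11.25 on those with high TACC3. The NDC80 difference in the FGFR3-low set was 0.08, with overlap.

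The 8 genes of mitotic motors and cytokinesis were all lower without overlap in the ARMCX3-low set, with a median of -0.80, and in the GAS1-high set, with a median of -0.30. In the FGFR3-low set this held for 1 of 8, ECT2, and the median was -0.03. KIF11 slides spindle microtubules apart, KIF2C shortens microtubules at centromeres, KIF4A is a motor of chromosomes and the central spindle, KIF23, KIF20A and KIF14 act in cytokinesis, and ECT2 activates RHOA at the cleavage furrow. KIF20A read 10.40, 10.42 and 10.44 on the ARMCX3-low arrays with low TACC3 and 11.01, 11.08 and 11.09 on those with high TACC3. KIF20A in the FGFR3-low set read 11.13, 11.18 and 11.19 on the low arrays and 11.11, 11.14 and 11.16 on the high arrays, which overlap. PRC1, singled out after its values were seen, was low on all 6 ARMCX3-low arrays, at 11.02, 11.02 and 11.06 with low TACC3 and 11.78, 11.82 and 11.84 with high TACC3, while the other 18 arrays had 12.29 to 12.58.

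The 5 spindle assembly genes were all lower without overlap in the ARMCX3-low set, with a median of -0.85, and 4 of 5 in the GAS1-high set, with a median of -0.27. TPX2 activates AURKA on the spindle, and HMMR is a microtubule-associated protein of the spindle poles. DLGAP5 and HMMR in the FGFR3-low set were lower without overlap, at -0.12 and -0.09, while ASPM and NUSAP1 were higher without overlap, at 0.13 and 0.12. The small differences of ASPM and NUSAP1 over all arrays thus stood beside differences of -0.86 and -0.57 in the ARMCX3-low set.

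TOP2A, MKI67, which coats mitotic chromosomes and is the Ki-67 proliferation marker, and FOXM1, a transcription factor of G2 and mitotic genes, were lower without overlap in the ARMCX3-low set, at -0.69, -0.86 and -0.85. TOP2A read 11.48, 11.69 and 11.75 on the ARMCX3-low arrays with low TACC3 and 12.38, 12.39 and 12.44 on those with high TACC3. TOP2A in the GAS1-high set read 12.43, 12.62 and 12.66 on the low arrays and 12.61, 12.66 and 12.66 on the high arrays, which overlap. The FGFR3-low set had the other order, with TOP2A at 12.42, 12.52 and 12.54 on the low arrays and 12.23, 12.27 and 12.34 on the high arrays. TOP2A was thus the member with the highest difference there, 0.25. FOXM1 read 9.51, 9.58 and 9.61 on the ARMCX3-low arrays with low TACC3 and 10.38, 10.42 and 10.49 on those with high TACC3. FOXM1 in the GAS1-high set read 10.45, 10.45 and 10.50 on the low arrays and 10.74, 10.77 and 10.78 on the high arrays. FOXM1 in the FGFR3-low set read 10.39, 10.49 and 10.51 on the low arrays and 10.46, 10.55 and 10.63 on the high arrays, and MKI67 had a difference of -0.01, so both overlapped.

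RNA quality moved with the TACC3 side. The excess of 3′ over 5′ signal of GAPDH, which grows as RNA degrades, was 0.28 to 0.42 on the TACC3-low arrays and 0.20 to 0.29 on the TACC3-high arrays, and that of ACTB 0.79 to 1.17 on the low arrays and 0.70 to 0.97 on the high arrays. On the 3 ARMCX3-low arrays with low TACC3 the GAPDH excess was 0.37, 0.37 and 0.42, against 0.20 to 0.38 on the other 21 arrays, and the ACTB excess was 1.01 to 1.17, against 0.70 to 1.06. Within each of the 3 marker sets the GAPDH excess did not overlap between the TACC3 sides. In the ARMCX3-low set it was 0.37 to 0.42 on the low arrays and 0.26 to 0.29 on the high arrays. In the GAS1-high set it was 0.28 to 0.33 and 0.20 to 0.27, and in the FGFR3-low set 0.35 to 0.38 and 0.22 to 0.29. The ACTB excess did not overlap in the ARMCX3-low and FGFR3-low sets and overlapped in the GAS1-high set. The part of RNA quality in the members' levels was not tested. The summed levels of fibroblast markers were 13.43 to 13.69 on the TACC3-low arrays and 13.06 to 13.51 on the TACC3-high arrays, those of epithelial markers 15.78 to 16.00 on the low arrays and 15.80 to 15.93 on the high arrays, and those of leukocyte markers 8.78 to 9.04 on the low arrays and 8.72 to 9.10 on the high arrays. The epithelial sum was 15.97 to 16.00 on the 3 ARMCX3-low arrays with low TACC3 and 15.78 to 15.93 on the other 21 arrays, with no overlap. The part of these markers was not tested either.

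The lists nearest in function are given beside the members. Of 59 other measured mitotic genes 5 were lower without overlap over all arrays, and 58, 54 and 21 in the ARMCX3-low, GAS1-high and FGFR3-low sets, with median differences of -0.80, -0.32 and -0.08. Of 39 DNA replication genes, which act in the preceding S phase, 22 were lower without overlap over all arrays, and 37, 34 and 31 in those sets, with medians of -0.88, -0.41 and -0.33. In the FGFR3-low set the replication genes thus had 31 of 39 lower without overlap beside 18 of 40 members, a difference that was not tested. By label 0 genes of either list passed limma's test, and the medians in the 2-4, 4-1, 6-16 and EGFP lines and the contrast were 0.32, 0.24, -0.18, 0.16 and -0.03 for the other mitotic genes and 0.32, 0.25, -0.22, 0.18 and -0.09 for the replication genes.

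Promoters of genes of this class often hold a cell cycle homology region (CHR), which binds the MuvB complex, a repressor in resting cells and an activator with B-MYB and FOXM1 in G2, next to CCAAT boxes, which bind NF-Y. RefSeq windows of 300 bases, from 250 before to 50 after the gene start on the build GRCh38.p14, were held for 33 members. The window of AURKB was placed 350 bases from the start that RefSeq's gene table gives, so its motif distances are from the window's own start point, and the other 32 matched. The letters TTTGAA, or TTCAAA on the other strand, were searched for the CHR, and CCAAT, or ATTGG on the other strand, for the CCAAT box. Both strands were read, and 3 pairs of matches overlapped.

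The windows below are those of CCNB1, CDC20, PLK1 and SPC25, which were lower without overlap in all 3 marker sets, and of TOP2A, which was higher without overlap in the FGFR3-low set. CCNB1 lies at chr5:69166900-69167199 on the plus strand, CDC20 at chr1:43358731-43359030 on the plus strand, PLK1 at chr16:23678639-23678938 on the plus strand, SPC25 at chr2:168890381-168890680 on the minus strand and TOP2A at chr17:40417847-40418146 on the minus strand. Each is written 5′ to 3′ along the gene, with matches to either motif in capitals.
CCNB1: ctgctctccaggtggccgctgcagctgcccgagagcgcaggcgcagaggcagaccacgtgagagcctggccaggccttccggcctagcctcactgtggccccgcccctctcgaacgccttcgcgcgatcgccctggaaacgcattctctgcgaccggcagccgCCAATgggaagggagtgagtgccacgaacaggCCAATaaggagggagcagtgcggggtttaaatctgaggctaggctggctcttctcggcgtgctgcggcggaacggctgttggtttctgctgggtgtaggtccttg
CDC20: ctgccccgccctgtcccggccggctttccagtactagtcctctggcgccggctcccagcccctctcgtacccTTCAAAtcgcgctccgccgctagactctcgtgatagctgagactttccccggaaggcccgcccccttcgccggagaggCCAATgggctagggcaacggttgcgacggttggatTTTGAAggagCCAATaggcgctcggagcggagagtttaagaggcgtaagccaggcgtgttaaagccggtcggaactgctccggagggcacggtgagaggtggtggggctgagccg
PLK1: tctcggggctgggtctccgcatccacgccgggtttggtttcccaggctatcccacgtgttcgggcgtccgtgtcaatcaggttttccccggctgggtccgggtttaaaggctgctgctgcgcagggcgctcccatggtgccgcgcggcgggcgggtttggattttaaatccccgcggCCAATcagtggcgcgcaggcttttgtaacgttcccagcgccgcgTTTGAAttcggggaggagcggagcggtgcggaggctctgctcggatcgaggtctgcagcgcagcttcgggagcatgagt
SPC25: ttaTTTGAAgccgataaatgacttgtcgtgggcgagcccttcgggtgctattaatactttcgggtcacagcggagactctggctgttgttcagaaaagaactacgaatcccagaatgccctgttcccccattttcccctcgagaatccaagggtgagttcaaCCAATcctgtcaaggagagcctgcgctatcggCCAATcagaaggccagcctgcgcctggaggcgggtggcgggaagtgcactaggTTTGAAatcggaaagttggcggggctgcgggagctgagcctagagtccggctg
TOP2A: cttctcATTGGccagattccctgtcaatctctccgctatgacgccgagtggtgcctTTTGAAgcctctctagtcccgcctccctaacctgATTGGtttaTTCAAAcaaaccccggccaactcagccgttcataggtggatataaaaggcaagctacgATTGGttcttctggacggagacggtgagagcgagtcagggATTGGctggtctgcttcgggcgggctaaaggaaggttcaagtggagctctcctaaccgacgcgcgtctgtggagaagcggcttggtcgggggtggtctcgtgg

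The CCNB1 window held CCAAT matches 87 and 55 bases upstream of the gene start and 0 CHR matches. CDC20 had CHR matches at 178 and 65 bases upstream and CCAAT at 100 and 55, PLK1 had a CHR match at 29 and CCAAT at 73, and SPC25 had CHR matches at 247 and 3 and CCAAT at 88 and 56. TOP2A, 1 of the 4 members higher without overlap in the FGFR3-low set, held both motifs as well, with CHR at 194 and 151 bases upstream and CCAAT at 244, 160, 93 and 53. These matches are descriptions of the letters and not sites shown to be bound, and a window with no match says nothing of the factor.

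Among the 33 members with a window, 24 (72.7%) held a CHR match, against 15.4% of 27305 promoters of the same length. A CCAAT match was found in 27 (81.8%), against 35.7% of all promoters, and both motifs in 21 (63.6%), against 6.08%. In the other mitotic genes both were found in 21 of 51 (41.2%). The members CDC25C, KIF2C and CENPE had neither, and 17 members had more than 1 CCAAT match. The members AURKA, BUB3, TTK, BIRC5, TPX2, FOXM1 and UBE2C were not in the sequence table.

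**Figure D5:**
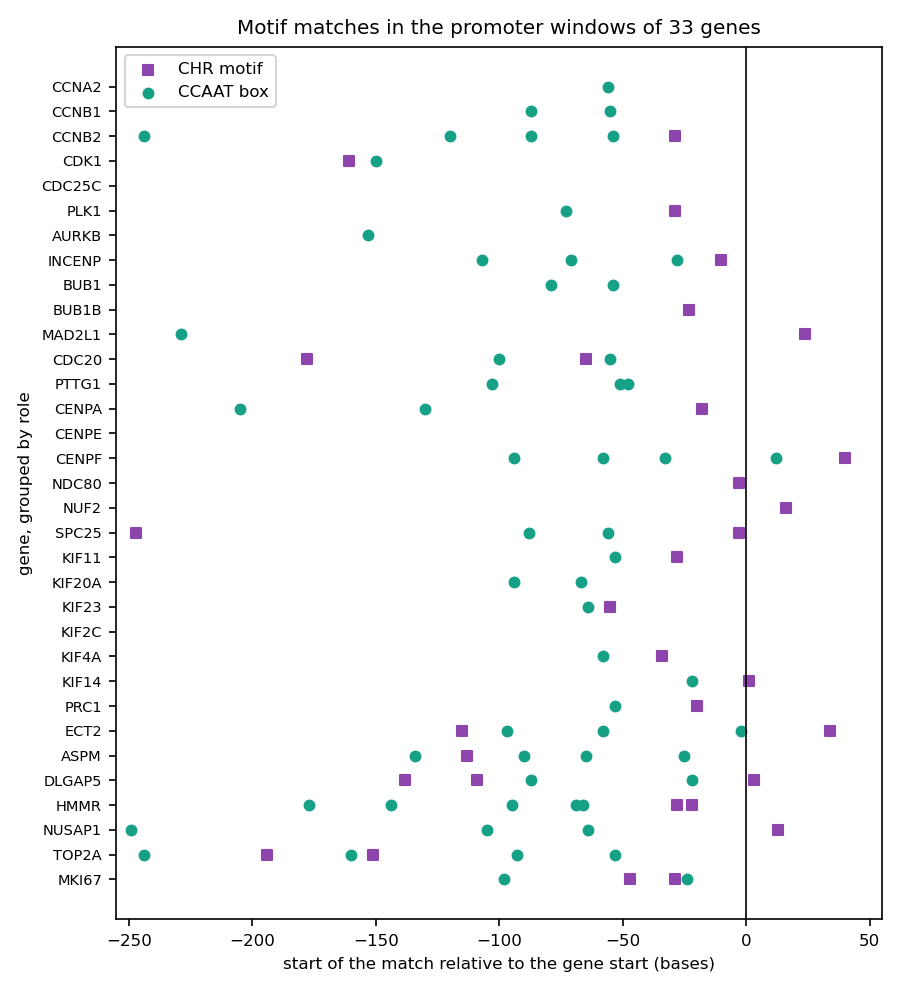
For the 33 members with a promoter window, the x axis gives the start of each motif match in bases from the gene start (for AURKB, from the window's own start point), squares for the CHR and circles for the CCAAT box. CDC25C, KIF2C and CENPE have no match in their windows, and 21 of the 33 genes have both.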

How the data were processed

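The authors deposited log2 expression values of 54675 probe sets on 24 Affymetrix arrays, and RMA and the affy package are named, without versions, in the submitters' processing notes. The probe grouping file and the genome build are not given in the sources used here. RMA quantile-normalizes the arrays, so a change shared by most genes is removed. Array medians ran from 6.98 to 7.08, and 0 pairs of arrays were identical. Arrays have no read depth, so their number limits the precision.

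Probe sets with 1 gene symbol in GEO's platform annotation (41097) were kept, while 1801 with several and 11777 with none were left out. By Entrez identifier 41043 matched RefSeq and 0 symbols changed. Each gene was read from its probe set of highest mean, with no filter on low values, leaving 19775 genes. The 40 members had 82 probe sets, and 19 members had 1. The probe sets used for CENPA, FOXM1 and PTTG1 (with an _x_at suffix) can bind RNA of related genes, so those levels are less certain.

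limma 3.58.1 in R 4.3.3 was fitted once, with 8 group coefficients, 16 residual degrees of freedom and 3.13 from the prior. Adjusted p-values are Benjamini-Hochberg over all genes, with a threshold of 0.05, and SE and 95% intervals are the moderated ones. The fit was tested on simulated data, with noise drawn independently for each gene and array. Genes that move together, as the members do, were not simulated. Residuals of same-numbered arrays correlated over 0.1 for all 3 pairs of the 2-4 line (0.25 to 0.50) and of the 6-16 line (0.36 to 0.61). This did not hold for all pairs of the 4-1 line (-0.53 to 0.48) or the EGFP line (-0.27 to 0.44). Arrays of different number were not correlated beside them, so these values cannot show whether numbers pair arrays. Replicate 2 of the 2-4 line was ARMCX3-low without doxycycline, at 3.81, and FGFR3-low with it, where ARMCX3 read 9.59. The labels name no shared culture or day. Alternatives were the replicate block, array weights, a filter on dim genes, other probe set choices, centred arrays, single lines and each array left out.

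The members and all lists (60 other mitotic genes with 59 measured, 40 DNA replication genes with 39 measured, and cell type markers), the TACC3 value and the marker sets were chosen with earlier results of these data known. Values of single arrays were given for CCNB1, PLK1, TOP2A, BUB1, KIF20A, CENPF, FOXM1 and BUB3, and for PRC1 after its values were seen. For each comparison by label the members with the highest and lowest change were named, and for the TACC3 split the 6 widest and 4 smallest differences of medians. Other members are named by role or by overlap, after their values were seen.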

Additional observations from a re-analysis of the deposited data

How the results depend on the processing

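Under each alternative 0 of the 40 members passed limma's test in any comparison by label, and of 298 alternative values of single members named above 0 passed, with a smallest adjusted p of 0.262. The number of genes passing in the 6-16 line was 0 as reported, 1 under the replicate block, 1 with only the arrays of the line and 1291 with array weights. With array weights the 6-16 median over members was 0.080. The replicate block changed no call of a member. INCENP in the 4-1 line was 0.015 with array weights, and BIRC5 in the EGFP line was 0.027 with array weights and 0.11 with the probe set of highest variance. The number of members lower without overlap over all arrays was 3 with the probe set of highest variance, 4 over all probe sets and 0 with centred arrays. The median difference was -0.74 in the ARMCX3-low set over all probe sets, and -0.39 in the GAS1-high set with centred arrays. The cause of these shifts was not tested.

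With each array left out in turn, the medians over members ran from 0.00067 to 0.55 in the 2-4 line, -0.081 to 0.53 in the 4-1 line, -0.37 to 0.15 in the 6-16 line, 0.15 to 0.25 in the EGFP line and -0.18 to 0.050 in the contrast of FGFR3 lines with the EGFP line. INCENP ran from -0.078 to 0.023 in the 2-4 line and -0.23 to 0.047 in the 4-1 line, SPC25 from -0.070 to 0.81 in the 4-1 line and -0.65 to 0.10 in the 6-16 line, and BIRC5 from -0.19 to 0.011 in the EGFP line. INCENP turned its sign in the 2-4 line without replicate 3 of the untreated or replicate 2 of the treated arrays, and in the 4-1 line without replicate 2 of the untreated ones, and BIRC5 did without replicate 3 of the treated arrays. The number of members lower without overlap over all arrays ran from 1 to 6, with 3 when replicate 1 and 6 when replicate 2 was dropped from the EGFP group that had no doxycycline. The median difference in the ARMCX3-low set ran from -0.86 to -0.76.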

Other observations

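Beside the 40 probe sets taken, the members had 42 others. On these, in the ARMCX3-low set, the TACC3-low arrays were lower without overlap for 34 of 42 and higher for 0, against 15.2% and 17.9% of all 41097 probe sets with 1 gene, and the median difference was -0.64. In the GAS1-high set 24 of 42 were lower and 1 higher without overlap, against 17.1% and 13.2%, with a median of -0.22, while of the probe sets taken 35 of 40 were lower. In the FGFR3-low set 15 of 42 were lower and 9 higher without overlap, against 20.2% and 22.5%, with a median of -0.07. Probe sets of a gene share its RNA, so these counts are not independent of those over genes.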
